A study of Bos taurus with 2 samples.

Results

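The stress-induced early response genes described here are the AP-1 subunits FOS, FOSB, JUN, JUNB and JUND, the transcription factors EGR1 and ATF3, and the growth arrest genes GADD45A, GADD45B and GADD45G. Their probes were taken from a bovine oligonucleotide array by gene name or by the gene of the RefSeq accession printed on the array, which gave 21 of 43653 probes and 10 of 16959 named genes. Expression was measured in whole blood total RNA of Holstein cattle (Bos taurus), labelled with Cy3, with 1 array for the specimen labelled low feed efficiency and 1 for the specimen labelled high. A cow with high residual feed intake eats more than its size and yield would predict, which is low efficiency. The labels give no age, treatment, time or number of animals for either specimen, so animal and group cannot be told apart. The study's title asks which hormone-related genes differ with residual feed intake.

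Early response genes are switched on within minutes of a stimulus, without new protein synthesis. Kinases of the ERK, JNK and p38 families activate factors already bound at their promoters, and the mRNAs are short-lived. FOS and JUN proteins pair through a leucine zipper to form AP-1, which binds DNA and drives later genes. GADD45 proteins are small acidic proteins without a catalytic site that act by binding others, among them the kinase MAP3K4 upstream of p38 and JNK, the replication factor PCNA and the CDK1-cyclin B complex. In leukocytes these genes respond to cytokines, microbial products and handling of the blood, and ATF3 and GADD45B are among the genes that restrain or shape inflammatory signalling.

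Intensity is the median pixel of a spot minus a background from negative control spots, in scanner units. The background limit was 10.9, and 18 of the 21 member probes exceeded it on both arrays, which gave all 10 genes a value. Each difference is the log2 intensity on the low minus that on the high efficiency array after each array was divided by its 75th percentile (98 in low and 81 in high), so a probe with equal intensities on both arrays has a difference of -0.27. Since each group had 1 array, no difference could be tested. Among spots that carry the same probe, this log2 difference had an SD of 0.10 for 12 bright and 0.23 for 24 dim probes. That SD measures the spots and not the animals. Blood markers were bright on both arrays (haemoglobin HBA at 26648 and 20058, the neutrophil gene S100A12 at 48851 and 34561).

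The 3 GADD45 genes were higher in the low efficiency specimen at all 6 of their probes, FOSB was lower at both of its measured probes, and FOS, JUN, JUNB, JUND, EGR1 and ATF3 had differences between -0.26 and 0.11. Of all genes 20.8% lay below EGR1, the lowest of these, and 71.2% below JUN, the highest. No member probe was 2-fold apart, where 1.04% of 22000 probes were, and no member gene was, where 0.938% of 10339 genes were. At 1.5-fold, GADD45A and GADD45G were higher, 2 of 10 members against 2.68% of all genes. FOSB was 1.5-fold lower, 1 of 10 members against 3.14% of all genes. Above 0 lay 6 of 10 members, against 44.4% of all genes. The median difference of the 10 members was 0.02, and that of all genes was -0.04.

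**Figure D1:**
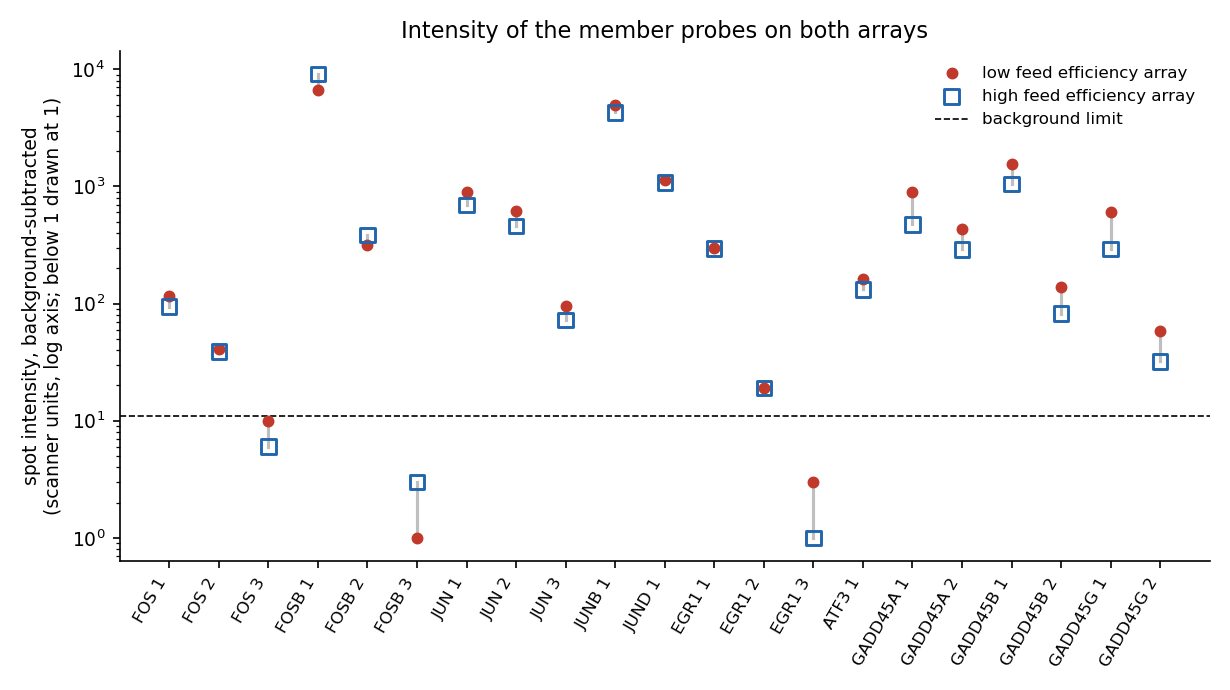
Background-subtracted spot intensity (scanner units, log axis) of all 21 member probes, numbered within a gene from the brightest, with a filled circle for the low and an open square for the high feed efficiency array. The dashed line is the background limit of 10.9, and 3 probes lie under it on both arrays.

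Among the FOS family, FOS encodes the founding Fos subunit, and its most strongly read probe had 116 on the low and 94 on the high efficiency array. Another FOS probe had 41 and 39, and the dimmest, with 10 and 6, was not well above background on either array. After scaling the brightest had a difference of 0.03 and the next -0.20, a gap of 0.23 between probes of one gene. The values on both arrays were thus nearly the same, and the direction for FOS was not settled. The brighter probe was flagged good on neither array, and its pixels varied by 27% and 43% of their mean. With only spots flagged good, FOS took the value of the probe with 41 and 39, -0.20.

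FOSB encodes a Fos subunit that is also spliced to a shorter form lacking the transactivation domain. Its brightest probe (A_73_101823) had 6641 on the low and 9133 on the high efficiency array. The high efficiency array was thus the brighter one for FOSB, although it was the dimmer array over all probes. The difference was -0.73, or 1.66-fold lower in low feed efficiency. Another FOSB probe (A_73_P356791) had 318 and 386 and a difference of -0.55. The dimmest had 1 and 3, not well above background on either array. FOSB was the gene with the 158th lowest difference of 10339, and the gap from FOS to FOSB was 0.76, ranging from 0.53 to 0.93 over 18 other ways of processing. A gap between genes on the same arrays does not move with the factor chosen to scale an array.

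The JUN family was close together. JUN, which pairs with Fos proteins in the classical AP-1 dimer, had 905 on the low and 691 on the high efficiency array at its brightest probe. Its other probes had 614 against 459 and 96 against 72. The differences were 0.11, 0.14 and 0.14, so the 3 JUN probes spanned 0.03, while the median span of genes with 3 measured probes was 0.30. JUNB, which can oppose JUN at some promoters, was read by 1 probe with 4953 and 4286 and a difference of -0.07. JUND, the family member with the steadiest expression in most cells, was read by 1 probe with 1142 and 1078 and a difference of -0.19. JUNB and JUND were brighter on the low efficiency array before scaling and lower after it, and the sign of JUNB changed under 6 of the 18 alternatives. JUN stayed above JUND by 0.26 to 0.35 over the alternatives (0.31 as reported).

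EGR1 encodes a zinc finger factor induced by growth factors and antigen receptor signals. Its best-read probe had 297 on the low and 294 on the high efficiency array, and a difference of -0.26 after scaling. Another EGR1 probe had 19 on both arrays and -0.27. That probe was near background, and on the high efficiency array its pixel mean was 75 against a pixel median of 19, so that the pixel mean gave -1.78 in place of -0.27. The dimmest had 3 and -2, not well above background. ATF3, a stress-induced factor that restrains inflammatory genes, was read by 1 probe with 162 and 132 and a difference of 0.02, the member nearest to 0. EGR1 turned positive under spike-in scaling (0.12) and without scaling (0.01).

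All 6 GADD45 probes were brighter in the low efficiency specimen, before and after scaling. Before scaling the median difference of all genes was 0.24. Every measured FOS, JUN, JUNB, JUND and ATF3 probe was also brighter on the low efficiency array then. After scaling 44.4% of all genes lay above 0. GADD45G, which binds CDK1 and MAP3K4 like its relatives and is induced by cytokines in T cells, had 603 on the low and 291 on the high efficiency array at its brighter probe (A_73_106673). Its difference was 0.78, or 1.71-fold higher in low feed efficiency, the 96th highest of 10339 genes. The dimmer GADD45G probe (A_73_P451571) had 58 and 32 and a difference of 0.58. Both spots were flagged good on both arrays. The dimmer probe had 0.15 with normexp background correction, which adds an offset of 50 to every spot and so compresses dim probes. Normexp also starts from another background value, and the arrays were scaled anew after it. Bright genes such as HBA (0.13 to 0.25) and JUNB (-0.07 to 0.05) moved up with it.

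GADD45A, a DNA damage-responsive member of the family, had 897 on the low and 475 on the high efficiency array at its brighter probe (A_73_119030), a difference of 0.64 or 1.56-fold. The other GADD45A probe (A_73_P154462) had 430 and 290 and a difference of 0.29. The low efficiency spot of that probe was uneven: its pixels varied by 83% of their mean, the pixel mean was 308 against a median of 430, and the pixel mean gave a difference of -0.16. As the mean over both probes GADD45A had 0.47. GADD45B, induced by TGF-beta and NF-kappa B signals, had 1565 and 1044 at its brighter probe, a difference of 0.31 or 1.24-fold. Its other probe had 138 and 82 and a difference of 0.48. Among the 3 genes GADD45G and GADD45A differed by less than the 0.35 that separated the probes of GADD45A, while GADD45G exceeded GADD45B by 0.47 (0.29 to 0.49 over the alternatives).

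**Figure D2:**
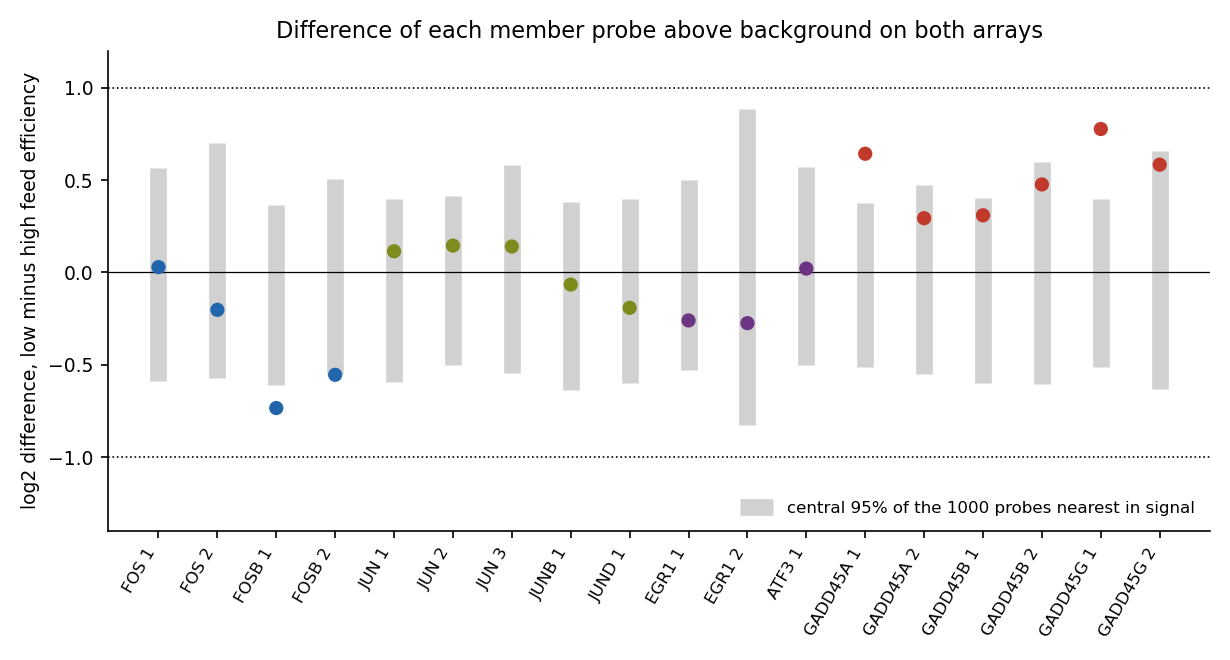
Log2 difference (low minus high feed efficiency) of the 18 member probes above background on both arrays, numbered as in the plot of intensities and coloured by gene family (FOS blue, JUN green, EGR1 and ATF3 purple, GADD45 red), with grey bars for the central 95% of the 1000 probes nearest in signal and dotted lines at 2-fold. The 6 GADD45 probes lie between 0.29 and 0.78, above the 12 other member probes, the highest of which has 0.14. Of all genes 11.7% lie above GADD45B, the lowest GADD45 gene.

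The 6 GADD45 probes lay between 0.29 and 0.78, and the 12 measured probes of the other members between -0.73 and 0.14, without overlap. Of all genes 11.7% lay above GADD45B, the lowest GADD45 gene, and 28.8% above JUN, the highest other member. Probes of 1 gene on the same pair of arrays are not independent readings. With normexp 5 of the 6 lay above every other member probe, and likewise with the pixel mean, while under the other 16 alternatives every measured GADD45 probe did. Of 7 members with several measured probes, 4 (JUN, GADD45A, GADD45B and GADD45G) had every probe above 0, against 25.4% of 4995 such genes. FOSB and EGR1 had every probe below 0, 2 of 7 against 32.7%, and FOS had 1 on each side. The median span of genes with 2 measured probes was 0.174. Members with 2 such probes spanned 0.349 (GADD45A), 0.231 (FOS), 0.193 (GADD45G), 0.180 (FOSB), 0.167 (GADD45B) and 0.015 (EGR1). GADD45G exceeded FOSB by 1.51, a 2.85-fold change in the ratio of the pair between the arrays, and by 1.32 to 1.60 over the alternatives. These are the highest and the lowest of the 10 members, so the gap is the largest of any pair of members. The alternatives reuse the same pair of arrays.

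Dim and bright probes scatter differently, so each member probe was set beside the 1000 probes nearest to it in signal. The brightest FOSB probe lay below their central 95% range, which ran from -0.61 to 0.36. The other measured FOSB probe was just outside, at -0.55 against a lower end of -0.55, with 2.2% of its neighbours lower. GADD45A lay above its range of -0.51 to 0.38 at the brighter probe, and GADD45G above -0.51 to 0.40. The other 14 measured member probes lay inside, the dimmer GADD45G probe among them at 0.58 (range -0.63 to 0.66). By construction 5% of all probes lie outside such ranges. Around the member spots, the median difference of the 196 to 241 measured spots within 10 columns and rows was between -0.12 and 0.05. After subtracting that local value the GADD45 probes had 0.30 to 0.82 and the 2 FOSB probes -0.78 and -0.45.

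The position of these values against 0 moved with the factor between the arrays. Scaling on 7 spike-in control probes moved every gene up by 0.38. GADD45G then had 1.15 and GADD45A 1.02, so 2 members were at least 2-fold higher, where 2.23% of all genes were. FOSB had -0.36, and JUNB, JUND and EGR1 had 0.31, 0.19 and 0.12. Without scaling GADD45G had 1.05, and 1.36% of all genes were at least 2-fold higher. Under all 18 alternatives FOSB was negative and GADD45A, GADD45B and GADD45G were positive by the probe or mean in use.

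**Figure D3:**
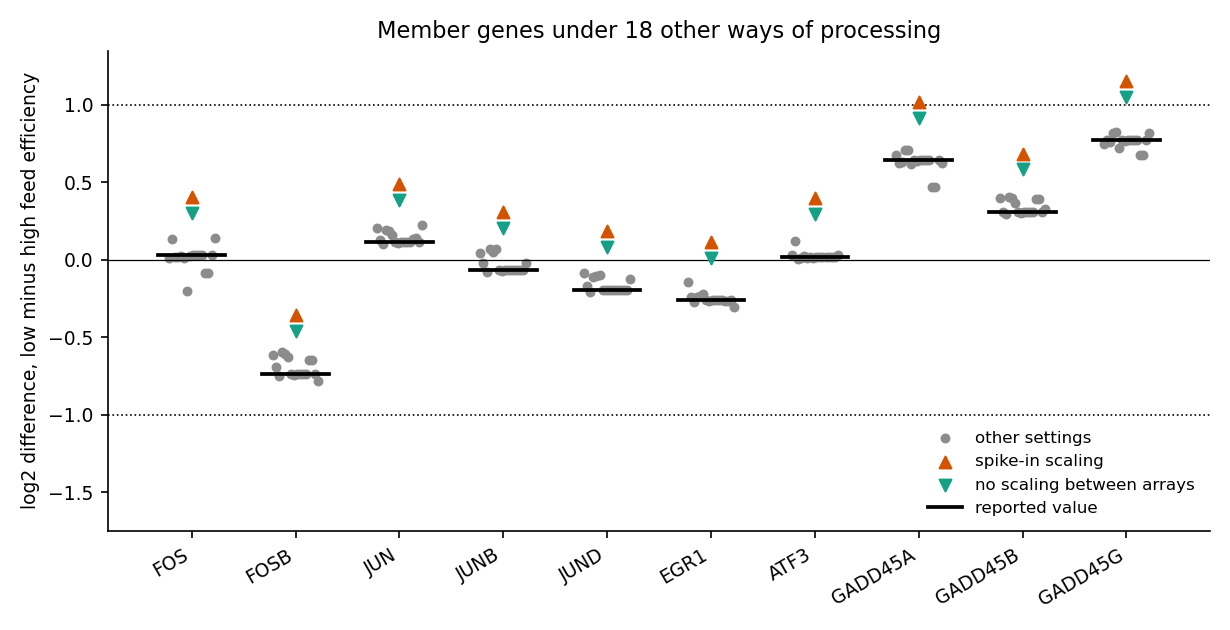
Log2 difference (low minus high feed efficiency) of the 10 member genes, with a bar for the reported value, grey points for 16 other settings, and triangles for spike-in scaling (up) and no scaling (down). FOSB stays below 0 throughout and the GADD45 genes stay above 0, while FOS, JUNB, JUND and EGR1 change sign under some settings.

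Other genes of these pathways are given for comparison. Of 20 other AP-1, ATF and CREB family genes 16 were measured, 9 above and 7 below the median of all genes, none 2-fold apart, 2 at least 1.5-fold lower (3.14% of all genes) and none 1.5-fold higher (2.68% of all genes). Their median was 0.04. Farthest from 0 was MAFF, a small Maf protein that pairs with Fos, with -0.81 at intensities of 20 and 29 (-0.35 with normexp). CEBPB, a basic leucine zipper factor of myeloid cells, had -0.70 at 1134 and 1527, though its 3 probes ran from -0.70 to -0.08. BATF2, an interferon-induced partner of JUN proteins, had -0.45 at 173 and 196. DDIT3, the stress factor CHOP, was chosen after its values were seen and had 0.30 at 902 and 607, with 0.44 at its other probe.

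Of 36 other immediate early genes 23 were measured, 18 above and 5 below the median of all genes, with a list median of 0.16. None was 1.5-fold higher (2.68% of all genes) or 1.5-fold lower (3.14% of all genes). KLF6, a zinc finger factor of activated myeloid cells, had 0.46 at 1474 and 887 with its 3 probes between 0.34 and 0.46. RGS1, a regulator of chemokine receptor signalling, had 0.42 near background at 34 and 21 (0.08 with normexp). SGK1, a kinase induced by glucocorticoids, had 0.32 at 505 and 334, and 0.13 at its other probe. MCL1, a survival factor of neutrophils chosen after its values were seen, had 0.32 at 4967 and 3296 with 3 probes between 0.31 and 0.35. EGR2, a close relative of EGR1 chosen after its values were seen, had -0.31 at 124 and 127 and was the lowest of this list.

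Upstream of these genes, 23 of 31 MAP kinase and serum response factor pathway genes were measured, 14 above and 9 below the median of all genes, with a list median of 0.05, 1 at least 1.5-fold higher (2.68% of all genes) and none 2-fold apart. MAP3K4, the kinase that GADD45 proteins bind and activate, had 0.59 at 124 and 68 (0.37 with normexp), but its other probe had 0.06. NAB1, a corepressor of EGR proteins, had 0.57 near background at 27 and 15 (0.06 with normexp). MAPK3, the kinase ERK1, had -0.46 at 6812 and 7760 with 3 probes between -0.46 and 0.11.

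Of 28 genes that bind GADD45 proteins or belong to the DNA damage and integrated stress responses 24 were measured, 15 above and 9 below the median of all genes. The list median was -0.02, with 3 members at least 1.5-fold higher (2.68% of all genes) and none 1.5-fold lower (3.14% of all genes). Besides MAP3K4 these were CDK1, with 0.66 at 21 and 11 (-0.08 with normexp), and EIF2AK2, the interferon-induced kinase PKR. EIF2AK2 had 0.60 at 77 and 42 (0.23 with normexp) and 0.14 at its other probe. With normexp none of the 3 was 1.5-fold higher. PCNA, which clamps DNA polymerase to its template, had 0.03 at 529 and 427. CDKN1A, a cell cycle inhibitor induced by DNA damage, and PCNA were chosen after their values were seen. CDKN1A had -0.28 at 268 and 269, and its other probe had 0.08.

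**Figure D4:**
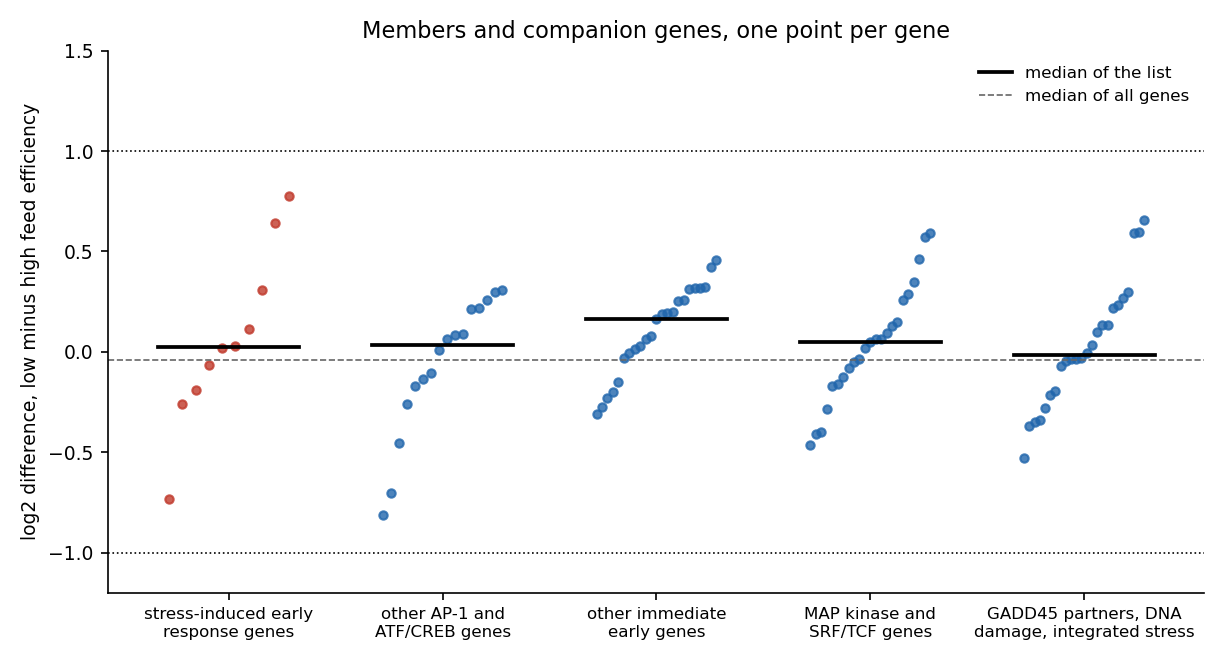
Log2 difference (low minus high feed efficiency) of each measured gene in 5 lists, sorted within a list, with a bar at the list median, a dashed line at the median of all genes (-0.04) and dotted lines at 2-fold. The medians run from -0.02 to 0.16, and the members span -0.73 to 0.78.

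Markers of blood cell types are given beside these values, as counts and medians relative to all genes. The median of all genes (-0.04) was subtracted from these medians, unlike from the pathway list medians above. Differences of single genes are given without that subtraction. Neutrophil markers lay above the median of all genes for 8 of 10, with a list median of 0.15. Natural killer and cytotoxic markers lay below it for 6 of 7, with -0.25. Monocyte markers lay below it for 5 of 7, with -0.17, and T cell markers for 5 of 7, with -0.12 (-0.01 with normexp). B cell and platelet markers had 3 of 6 and 2 of 5 above it, with medians of -0.06 and -0.02, and both medians turned positive with normexp. Normexp raised the median of every marker list, the neutrophil one to 0.25 and the natural killer and cytotoxic one to -0.15. Erythroid markers were divided: HBA, HBB and HBG lay above it, while AHSP, the alpha haemoglobin chaperone, had -0.36, and ALAS2, the first enzyme of haem synthesis, had -1.42 at 112 and 248. As reported, ALAS2 was the only marker 2-fold apart. CCR3 alone was measured of 7 eosinophil, basophil and mast cell markers. It had -0.80 at 151 and 218 (-1.02 with the pixel mean and -0.56 with normexp). In whole blood fewer cells of a type and less RNA per cell cannot be told apart, and the part of cell makeup in the GADD45 and FOSB values was not tested.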

How the data were processed

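Each deposited scanner file holds spot intensity at 532 nm from 1 array, scanned on a GenePix 4000B and exported with GenePix Pro 6.1.0.4, per the file headers; Agilent Feature Extraction is the tool in the submitters' processing notes. Background had been subtracted from negative controls, per the file headers. The deposited percent of saturated pixels, the flag score (100 good, 0 unflagged, -50 not found) and the score for pixel variation were also read. No member spot was saturated or left out. The authors' deposited table of log2 values, of unknown scaling, followed the scanner values only after a move by 1 row (Spearman's rho across probes 1.00 on both arrays against 0.077 and 0.072) and was an alternative only.

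Control spots and bright spots flagged not found (408 in low, 283 in high) were left out, leaving 43096 probes, 22000 above background on both arrays (negative control median plus 3 robust SDs). A gene took its brightest such probe. Every member probe is given; in each pathway list the 3 genes farthest from 0 are named, and 1 further gene of these lists is not reported here. Names came from RefSeq accessions and a gene table of ARS-UCD2.0. Members and lists were chosen with earlier results of these data known. Computation used Python 3.11.15, pandas 2.3.3 and limma 3.58.1 in R 4.3.3, and was tested on simulated data. The simulation changed only probes well above background, by folds larger than that of any member gene. It therefore does not cover differences of the size reported or dim probes. Of 18 alternatives, 2 (no scaling, and local medians removed) were added after seeing the data. The number of arrays limits the precision.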

Additional observations from a re-analysis of the deposited data

How the results depend on the processing

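With 1 array per group no replicate could be left out. No paired analysis was possible because each group has 1 array. No member probe or gene was 2-fold apart as reported. Spike-in scaling was an exception, with 2 probes (2.6% of all probes) and 2 genes (2.23% of all genes) higher. So were no scaling, with 1 probe (1.62%) and 1 gene (1.36%) higher, and the pixel mean, with 1 probe lower (0.904% of all probes). As reported, 2 member genes were 1.5-fold higher (2.68% of all genes) and 1 was 1.5-fold lower (3.14% of all genes). As none was 2-fold apart, none was 4-fold apart. Relative to all genes the member median was 0.06, and 0.25 when dim signals were floored at the background limit; the median of the GADD45 partner, DNA damage and integrated stress list went from 0.02 to 0.22 there. Probes at the floor on both arrays all take -0.27 in that setting, which moved the median of all genes to -0.22. Over all genes 38 were 2-fold higher and 59 lower; the counts ran from 5 (normexp) to 231 (spike-in scaling) and from 11 (normexp) to 106 (background limit at 2 robust SDs). Signs changed under some alternatives for FOS (3 of 18), JUNB (6), JUND (2) and EGR1 (2), and under none of the 18 for the other 6 members. For JUND, EGR1 and 2 of the 6 of JUNB these were spike-in scaling and no scaling, which add 1 constant to every gene and change no gene relative to the others. Dim probes are limited by signal over background.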
